A study of Homo sapiens with 6 samples.

Results

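The collagen genes were taken as every gene whose symbol is COL, a number, A and a number, and 43 such genes were measured among 18417 genes on Affymetrix Gene 1.0 ST arrays. Each gene was read from the probe set that carries its symbol alone, with the highest mean signal where there were several. COL17A1 was not analysed here. The arrays came from 3 human fibroblast lines that form a stepwise model of transformation, with 2 biological replicates per line. The tumorigenic line, BJELM, derives from BJEL by a retrovirus carrying MYC fused to the estrogen receptor (pBabe-MYC-ER), and was grown continuously with 4-hydroxytamoxifen and with puromycin, G-418 and hygromycin. The immortalized line, BJEL, carries hTERT and the SV40 early region and was grown with G-418 and hygromycin. The starting line, BJ, is a normal foreskin fibroblast culture with no introduced gene and no selection drug. The introduced genes, the drugs and the passage through selection therefore cannot be told apart.

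Values are log2 RMA signals, so a difference of 1 is 2-fold and signals of different genes cannot be ranked against each other. A gene is said to have fallen or risen when limma gave an adjusted p under 0.05, with the Benjamini-Hochberg adjustment over all 18417 genes, and a change of at least 2-fold. The comparisons share arrays: BJELM against BJ and BJEL against BJ use the same 2 BJ arrays.

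The labels were checked on the introduced genes TERT and MYC, and on CCND2, which was not introduced. TERT had 10.84 and 10.78 on the arrays labelled BJELM, 10.71 and 10.97 in BJEL, and 7.77 and 7.88 in BJ. CCND2, a MYC target used as a marker of the last step, had 10.75 and 11.08 on the arrays labelled BJELM, 5.16 and 5.33 in BJEL, and 5.95 and 5.53 in BJ. MYC went against its label, with 9.57 and 8.90 on the arrays labelled BJELM, 10.22 and 10.12 in BJEL, and 9.47 and 9.61 in BJ. For that reason the first arrays are called the arrays labelled BJELM. The marker lists were set against the median gene level of 7.26, which is the median over genes of the mean over all arrays. Of 8 fibroblast markers, 5 lay above it on the arrays labelled BJELM, 5 in BJEL and 8 in BJ, by the mean of each line, against, in every line, 0 of 6 keratinocyte, 0 of 4 endothelial, 0 of 3 melanocyte, 0 of 3 leukocyte and 1 of 5 chondrocyte markers, the last being SOX9. VIM, the intermediate filament of mesenchymal cells, had 12.98 and 12.87 on the arrays labelled BJELM, 12.95 and 12.89 in BJEL, and 13.07 and 13.01 in BJ. VIM and TWIST2 alone among the 8 were called in neither comparison with BJ, so VIM does not stand for the list. Against BJ, PDGFRA changed by -3.38 on the arrays labelled BJELM and by -3.57 in BJEL. The values were -2.96 and -3.45 for FAP, and -3.01 and -3.12 for S100A4. The mean level of the 8 fibroblast markers was 8.79 to 9.07 on the arrays labelled BJELM, 8.82 to 8.83 in BJEL and 10.62 to 10.82 in BJ, so it moved with the collagen results that follow. Of these markers, 6 fell on the arrays labelled BJELM, where 4.70% of all genes fell, and 5 in BJEL, where 2.29% did, each against BJ. Their part in the collagen results was not tested, and in bulk RNA fewer cells of a type and less RNA per cell cannot be told apart.

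Collagens are extracellular proteins whose chains wind in groups of 3 into a triple helix, which needs glycine at regular intervals and hydroxylated prolines. Fibroblasts secrete the fibrillar types I, III and V, which form banded fibrils, and type VI, which forms beaded filaments around cells. The FACIT collagens sit on fibril surfaces, type IV forms the network of basement membranes, and the multiplexins XV and XVIII are basement membrane proteoglycans. In types built from different chains, these are encoded by different genes, often on different chromosomes, and a helix needs them in set proportions.

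RefSeq promoter windows were at hand for 31 of the 43 genes on GRCh38.p14. Those of type IV and type VI are shown because COL4A1 and COL4A2 lie head to head and share the stretch between their starts, while COL6A2 and COL6A3 lie on different chromosomes. COL4A1, on the minus strand, and COL4A2, on the plus strand, start 126 bases apart on chromosome 13. For COL6A2 and COL6A3 the 120 bases before the start are given. Capitals mark the CCAAT box (CCAAT), the GC box (GGGCGG) and the TATA box (TATAAA), searched on both strands.
COL4A1 and COL4A2, chr13:110307158-110307283, plus strand: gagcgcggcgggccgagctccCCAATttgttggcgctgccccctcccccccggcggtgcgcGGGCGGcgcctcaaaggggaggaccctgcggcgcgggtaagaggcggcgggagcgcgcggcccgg
COL6A2, chr21:46097992-46098111, plus strand: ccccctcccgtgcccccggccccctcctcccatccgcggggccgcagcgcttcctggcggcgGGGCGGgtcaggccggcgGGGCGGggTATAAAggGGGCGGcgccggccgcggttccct
COL6A3, chr2:237414165-237414284, minus strand: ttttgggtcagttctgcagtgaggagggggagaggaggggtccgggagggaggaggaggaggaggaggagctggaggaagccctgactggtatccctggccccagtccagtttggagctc
The stretch between COL4A1 and COL4A2 held 1 CCAAT box and 1 GC box. COL6A2 held 3 GC boxes and 1 TATA box, and COL6A3 held none of these motifs. Over windows of 300 bases around the start, the GC box was found in 18 of 31 collagen promoters (58.1%) and in 44.6% of 27305 promoters of all genes. The CCAAT box was found in 9 collagen promoters (29.0%) and in 35.7% of all, and the TATA box in 4 (12.9%) and in 12.0% of all. A match is a description of the letters and not a binding site.

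Among the 43 collagen genes, 11 fell and 0 rose on the arrays labelled BJELM against BJ, which is 25.6% falling where 4.70% of all genes fell and 4.09% rose. In BJEL against BJ, 6 fell and 0 rose, which is 13.95% falling where 2.29% of all genes fell and 2.89% rose. On the arrays labelled BJELM against BJEL, 0 collagen genes were called by limma in a comparison where 1.76% of all genes fell and 0.923% rose. In that comparison 7 of 43 (16.3%) had an unadjusted p under 0.05, a smaller share than the 25.4% of all genes. COL5A1, COL6A3, COL8A1 and COL12A1 were lower among them, and COL16A1, COL18A1 and COL27A1 higher. The median collagen difference was -0.19 on the arrays labelled BJELM against BJ, beside 0.011 over all genes. It was -0.27 in BJEL against BJ, beside -0.017 over all genes, and 0.067 on the arrays labelled BJELM against BJEL, beside 0.029. Below 2-fold, 3 further genes on the arrays labelled BJELM (6.98%) had lower values than BJ with an adjusted p under 0.05, close to the 8.36% of all genes that did. In BJEL 9 genes (20.9%) had such values, beside 4.84% of all genes.

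**Figure D1:**
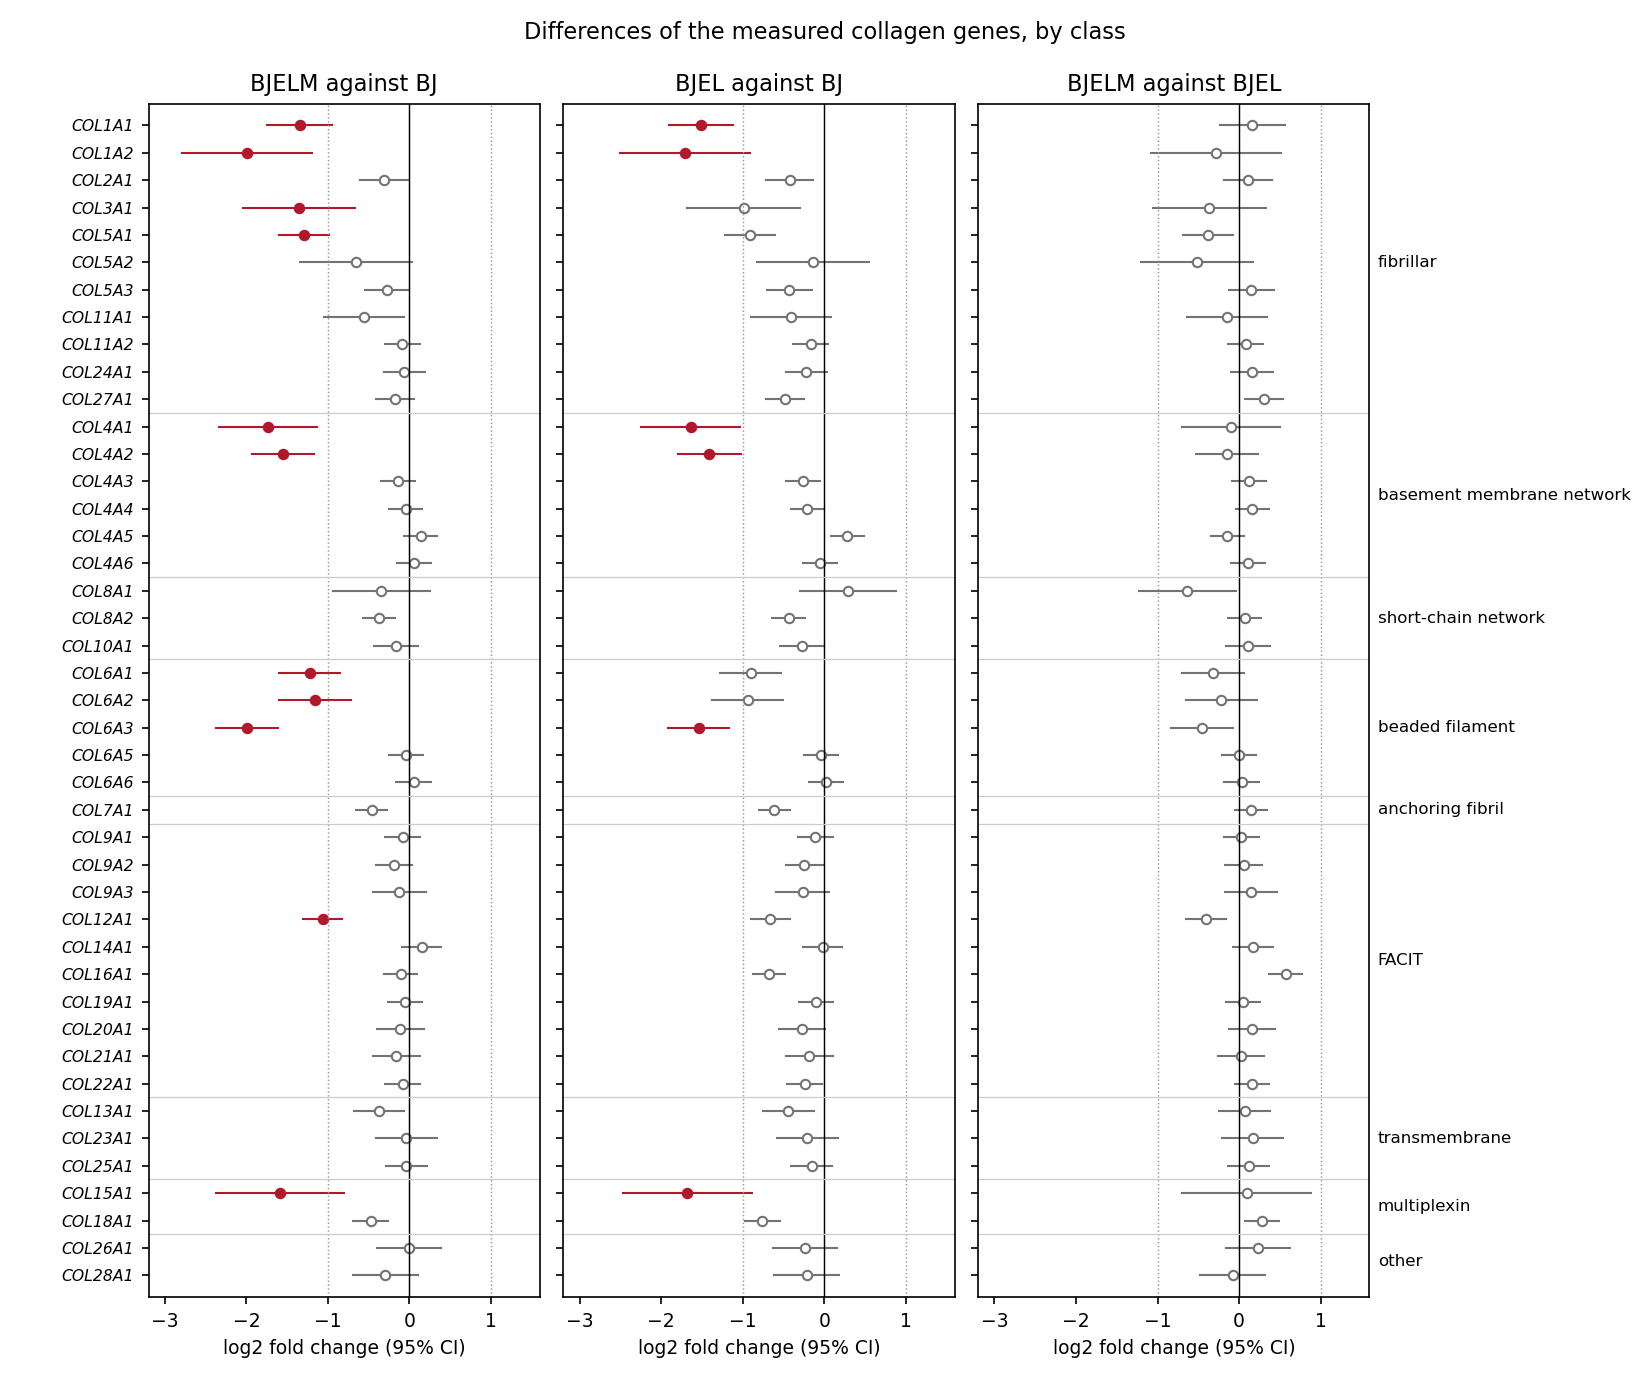
Log2 fold change (x axis) with its 95% confidence interval from limma for each of the 43 collagen genes, grouped by class, in the 3 comparisons. Filled red points fell by the test and open grey points did not pass it; dotted lines mark 2-fold. The red points, 11 on the left and 6 in the middle, lie below 0 in both comparisons with BJ, and the panel on the right has none.

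Type I collagen, the main fibril protein of skin and bone, is a heterotrimer of COL1A1 and COL1A2 products. COL1A1 (Entrez Gene 1277, chromosome 17) had 11.33 and 10.86 on the arrays labelled BJELM, 10.85 and 11.01 in BJEL, and 12.46 and 12.42 in BJ. The BJ arrays stood above all 4 others. COL1A1 changed by -1.35 ± 0.16 (SE) on the arrays labelled BJELM against BJ (limma adjusted p = 0.00207), and by -1.51 ± 0.16 in BJEL against BJ (adjusted p = 0.00272). COL1A2 (Entrez Gene 1278, chromosome 7) had 10.99 and 9.98 on the arrays labelled BJELM, 10.89 and 10.65 in BJEL, and 12.67 and 12.28 in BJ. Replicate 2 labelled BJELM was the lowest of the 6 arrays. COL1A2 changed by -1.99 ± 0.33 on the arrays labelled BJELM (adjusted p = 0.00617) and by -1.71 ± 0.33 in BJEL (adjusted p = 0.0178), each against BJ. The BJEL call of COL1A2 was lost without BJ replicate 1 (-1.51, adjusted p = 0.106), without BJEL replicate 1 (-1.83, adjusted p = 0.0757) and without BJEL replicate 2 (-1.59, adjusted p = 0.0861).

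Between the arrays labelled BJELM and BJEL, neither chain of type I was called. The difference was 0.16, with a 95% interval of -0.23 to 0.56, for COL1A1, and -0.29, with an interval of -1.08 to 0.51, for COL1A2. The interval of COL1A2 still holds a 2-fold fall.

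Type III collagen, a homotrimer that forms thin fibrils with type I, is encoded by COL3A1 (Entrez Gene 1281, chromosome 2). COL3A1 had 9.35 and 8.48 on the arrays labelled BJELM, 9.44 and 9.12 in BJEL, and 10.39 and 10.15 in BJ. It fell by 1.35 ± 0.28 on the arrays labelled BJELM against BJ (limma adjusted p = 0.0152), while BJEL against BJ gave -0.99 ± 0.28 (adjusted p = 0.064). The call was lost without BJ replicate 1 (-1.23, adjusted p = 0.0866) and, by size, without replicate 2 labelled BJELM (-0.92, adjusted p = 0.0209).

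Type V collagen nucleates the fibrils of type I and limits their width. Its COL5A1 chain (Entrez Gene 1289, chromosome 9) had 7.81 and 7.59 on the arrays labelled BJELM, 8.18 and 7.97 in BJEL, and 9.07 and 8.90 in BJ. The 3 lines did not overlap, and BJEL lay between the others. COL5A1 fell by 1.29 ± 0.13 on the arrays labelled BJELM against BJ (limma adjusted p = 0.00107). In BJEL against BJ its difference was -0.91 ± 0.13 (adjusted p = 0.00595), under the 2-fold minimum, and without BJEL replicate 1 it passed with -1.02 (adjusted p = 0.0269). Its partner chain COL5A2 had 8.72 and 7.94 on the arrays labelled BJELM, 9.01 and 8.68 in BJEL, and 9.19 and 8.77 in BJ, so that BJEL and BJ overlapped. COL5A2 differed by -0.65 ± 0.28 on the arrays labelled BJELM (adjusted p = 0.155) and by -0.13 ± 0.28 in BJEL (adjusted p = 0.812), each against BJ. Without replicate 1 labelled BJELM, COL5A2 passed the test against BJ with -1.04 (adjusted p = 0.0259).

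COL5A3, the remaining chain gene of type V, had 7.10 and 7.15 on the arrays labelled BJELM, 6.90 and 7.05 in BJEL, and 7.52 and 7.28 in BJ, and was not called. Of the other fibrillar genes, COL2A1 and COL11A2 are best known from cartilage. COL11A1, COL24A1 and COL27A1 complete the class. None of these 5 was called, with differences from BJ of -0.55 to -0.06 on the arrays labelled BJELM and of -0.48 to -0.17 in BJEL. All 11 fibrillar genes had lower means than in BJ on the arrays labelled BJELM, beside 47.9% of all genes, and in BJEL, beside 53.5%. Of the 11, 4 fell by the test on the arrays labelled BJELM, beside 4.70% of all genes, and 2 in BJEL, beside 2.29%.

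**Figure D2:**
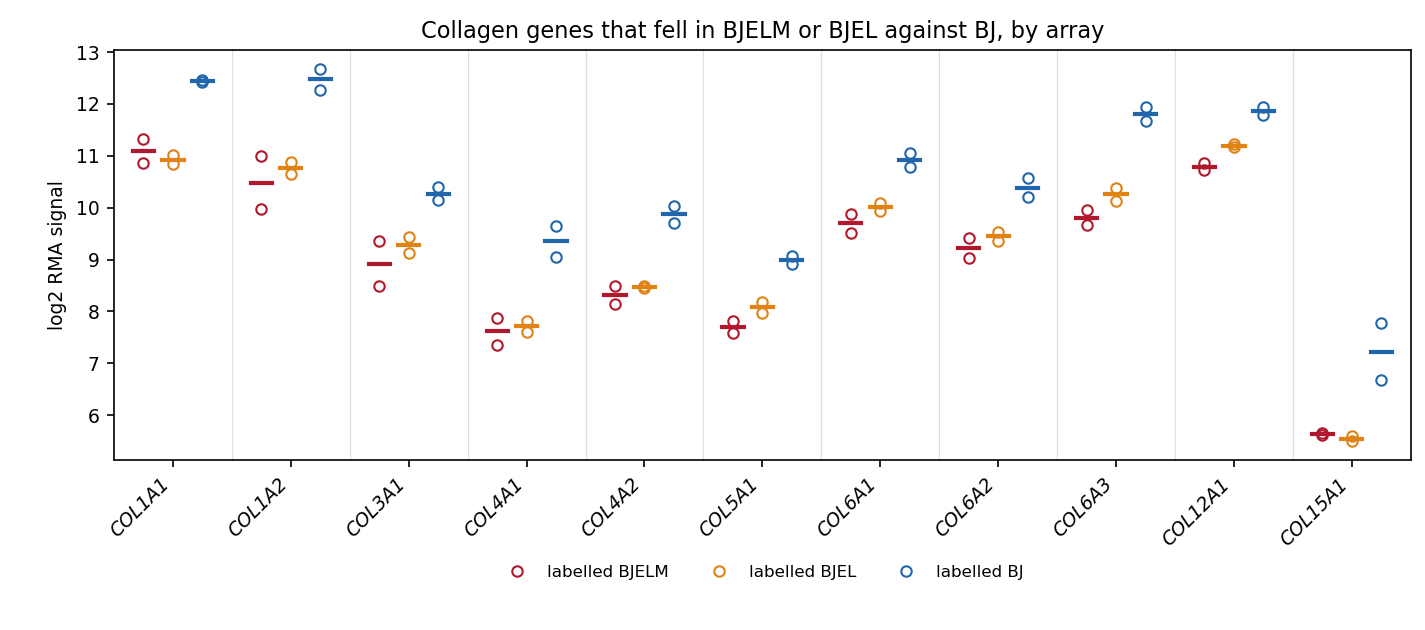
Log2 RMA signal (y axis) on each of the 6 arrays for the 11 collagen genes that fell, in the order labelled BJELM, BJEL and BJ. Circles are arrays and bars are means of 2. In each of the 11 genes both BJ arrays lie above the other 4. The genes were picked by their fall against these same BJ arrays, so this separation is no further evidence. The BJ arrays of COL15A1 are the widest apart, at 7.77 and 6.68.

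Type IV collagen of most basement membranes consists of COL4A1 and COL4A2 chains, whose genes share the stretch printed above. COL4A1 (Entrez Gene 1282, chromosome 13) had 7.87 and 7.36 on the arrays labelled BJELM, 7.81 and 7.61 in BJEL, and 9.65 and 9.05 in BJ. COL4A2 (Entrez Gene 1284, chromosome 13) had 8.48 and 8.15 on the arrays labelled BJELM, 8.48 and 8.44 in BJEL, and 10.04 and 9.70 in BJ. In both genes the 2 derived lines overlapped and BJ stood apart. COL4A1 changed by -1.74 ± 0.25 on the arrays labelled BJELM (limma adjusted p = 0.00375) and by -1.64 ± 0.25 in BJEL (adjusted p = 0.00815), each against BJ. COL4A2 changed by -1.55 ± 0.16 on the arrays labelled BJELM (adjusted p = 0.00116) and by -1.41 ± 0.16 in BJEL (adjusted p = 0.00306). All 4 of these calls remained with any 1 array left out.

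The other 4 type IV genes encode chains of specialised basement membranes such as those of the kidney glomerulus. COL4A3 and COL4A4 also lie head to head, as do COL4A5 and COL4A6, and none of them was called. COL4A5 was the only type IV gene with a higher mean in BJEL than in BJ. It had 5.87 and 5.83 on the arrays labelled BJELM, 6.01 and 5.98 in BJEL, and 5.77 and 5.66 in BJ, without overlap between lines. Its difference in BJEL against BJ was 0.28 ± 0.08 (limma adjusted p = 0.0717). COL4A3, COL4A4 and COL4A6 differed from BJ by -0.13 to 0.06 on the arrays labelled BJELM and by -0.26 to -0.05 in BJEL, at signals of 5.19 to 5.61.

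Type VI collagen is assembled from COL6A1, COL6A2 and a longer chain, usually from COL6A3, into filaments that link cells to the fibrillar matrix. COL6A3 (Entrez Gene 1293, chromosome 2) had 9.95 and 9.67 on the arrays labelled BJELM, 10.39 and 10.14 in BJEL, and 11.94 and 11.67 in BJ. The 3 lines did not overlap. COL6A3 changed by -1.99 ± 0.16 on the arrays labelled BJELM (limma adjusted p = 0.00054) and by -1.54 ± 0.16 in BJEL (adjusted p = 0.00228), each against BJ. It was lower on the arrays labelled BJELM than in BJEL by -0.45, with a 95% interval of -0.83 to -0.07, which did not pass the test over all genes (adjusted p = 0.132).

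COL6A1 (Entrez Gene 1291, chromosome 21) had 9.88 and 9.52 on the arrays labelled BJELM, 10.09 and 9.94 in BJEL, and 11.05 and 10.79 in BJ. COL6A2 (Entrez Gene 1292, chromosome 21) had 9.42 and 9.04 on the arrays labelled BJELM, 9.53 and 9.36 in BJEL, and 10.57 and 10.20 in BJ. Both were highest in BJ, and their arrays from the derived lines lay close together, overlapping in COL6A2. COL6A1 fell by 1.22 ± 0.16 (limma adjusted p = 0.00248) and COL6A2 by 1.16 ± 0.18 (adjusted p = 0.00514) on the arrays labelled BJELM against BJ. The COL6A2 call was lost by size without BJ replicate 1 (-0.97, adjusted p = 0.0301) or replicate 2 labelled BJELM (-0.96, adjusted p = 0.0196). In BJEL against BJ the differences were -0.90 ± 0.16 (adjusted p = 0.0126) for COL6A1 and -0.94 ± 0.18 (adjusted p = 0.0179) for COL6A2, both just under 2-fold. Without BJ replicate 2 both passed in BJEL, with -1.03 (adjusted p = 0.029) for COL6A1 and -1.13 (adjusted p = 0.0266) for COL6A2. The alternative long chains COL6A5 and COL6A6 had signals of 4.56 to 4.85 on all arrays and differed from BJ by at most 0.05 in size in either line.

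Among the 10 FACIT genes, only COL12A1 was called. COL12A1 (Entrez Gene 1303, chromosome 6), whose product decorates type I fibrils in dense connective tissue, had 10.87 and 10.72 on the arrays labelled BJELM, 11.17 and 11.22 in BJEL, and 11.93 and 11.78 in BJ. The 3 lines did not overlap. It fell by 1.06 ± 0.10 on the arrays labelled BJELM against BJ (limma adjusted p = 0.000915), where BJEL against BJ gave -0.66 ± 0.10 (adjusted p = 0.00805). The call was lost by size without BJ replicate 1 (-0.99, adjusted p = 0.00902) or replicate 2 labelled BJELM (-0.99, adjusted p = 0.00521). It was lower on the arrays labelled BJELM than in BJEL by -0.40 ± 0.10 (adjusted p = 0.0549).

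COL16A1, a FACIT collagen of skin and cartilage, had the other order. It had 7.67 and 7.71 on the arrays labelled BJELM, 7.08 and 7.16 in BJEL, and 7.78 and 7.82 in BJ, so that BJEL was the lowest line and the arrays labelled BJELM came near BJ. Its difference was 0.57 ± 0.08 on the arrays labelled BJELM against BJEL (limma adjusted p = 0.0118), -0.68 ± 0.08 in BJEL against BJ (adjusted p = 0.00388) and -0.11 ± 0.08 on the arrays labelled BJELM against BJ (adjusted p = 0.438). All are under 2-fold. The adjusted p of COL16A1 between the arrays labelled BJELM and BJEL was 0.0811 without BJEL replicate 1, 0.0515 without BJEL replicate 2 and 0.0549 without replicate 2 labelled BJELM. The other 8 FACIT genes differed from BJ by -0.19 to 0.15 on the arrays labelled BJELM and by -0.27 to -0.02 in BJEL.

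**Figure D3:**
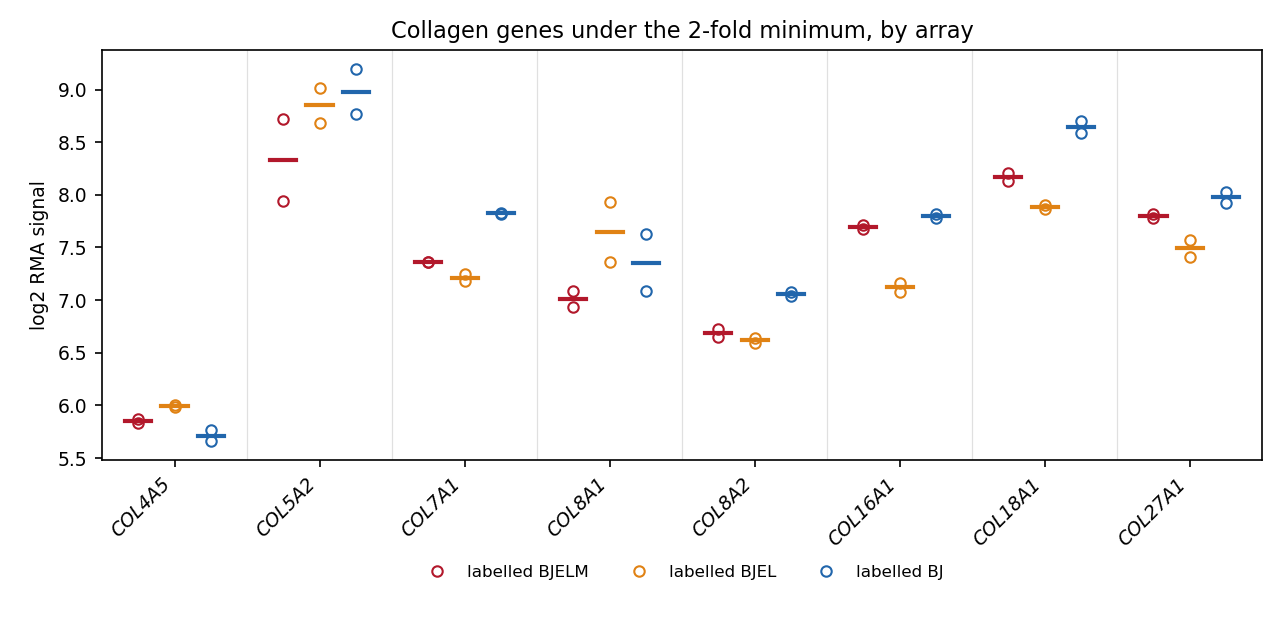
Log2 RMA signal (y axis) on each of the 6 arrays for 8 collagen genes that did not reach 2-fold, in the order labelled BJELM, BJEL and BJ; circles are arrays and bars are means of 2. In COL16A1 the arrays labelled BJELM (7.67 and 7.71) lie near BJ (7.78 and 7.82) and above BJEL (7.08 and 7.16); in COL5A2 BJEL and BJ overlap.

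The multiplexins carry fragments that act on blood vessels once released, endostatin from COL18A1 and a related fragment from COL15A1. COL15A1 (Entrez Gene 1306, chromosome 9) had 5.61 and 5.66 on the arrays labelled BJELM, 5.49 and 5.60 in BJEL, and 7.77 and 6.68 in BJ. The 2 BJ arrays were far apart, and both lay above the others. COL15A1 changed by -1.59 ± 0.32 on the arrays labelled BJELM (limma adjusted p = 0.0137) and by -1.68 ± 0.32 in BJEL (adjusted p = 0.0182), each against BJ. Without BJ replicate 1 the values were -1.04 (adjusted p = 0.00703) on the arrays labelled BJELM and -1.13 (adjusted p = 0.0109) in BJEL. The BJEL call of COL15A1 did not survive leaving out either BJEL array, with an adjusted p of 0.0999 without the first and 0.0726 without the second. COL18A1 had 8.13 and 8.20 on the arrays labelled BJELM, 7.86 and 7.91 in BJEL, and 8.70 and 8.59 in BJ, with no overlap. It differed by -0.48 ± 0.09 on the arrays labelled BJELM (adjusted p = 0.00925) and by -0.76 ± 0.09 in BJEL (adjusted p = 0.00337), each against BJ, both under 2-fold.

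Other smaller differences from BJ were in COL7A1, COL8A2 and COL27A1. COL7A1, the anchoring fibril collagen that fastens epidermis to dermis, had 7.36 and 7.36 on the arrays labelled BJELM, 7.18 and 7.25 in BJEL, and 7.83 and 7.82 in BJ. Its difference was -0.46 ± 0.08 on the arrays labelled BJELM (limma adjusted p = 0.00745) and -0.61 ± 0.08 in BJEL (adjusted p = 0.00497). COL8A2, of the short-chain network collagens, gave -0.37 ± 0.08 (adjusted p = 0.0186) on the arrays labelled BJELM and -0.44 ± 0.08 (adjusted p = 0.0168) in BJEL. COL27A1, a fibrillar gene, gave -0.18 ± 0.09 (adjusted p = 0.249) on the arrays labelled BJELM and -0.48 ± 0.09 (adjusted p = 0.0191) in BJEL. COL8A1, the partner of COL8A2, had a lower value on the arrays labelled BJELM than in BJEL, by -0.63 ± 0.24 (adjusted p = 0.171), with 7.09 and 6.94 on the arrays labelled BJELM, 7.93 and 7.36 in BJEL, and 7.63 and 7.08 in BJ. The 3 transmembrane genes measured (COL13A1, COL23A1 and COL25A1), COL10A1, COL26A1 and COL28A1 were not called in any comparison, with differences from BJ of -0.37 to -0.01 on the arrays labelled BJELM and of -0.44 to -0.15 in BJEL.

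The calls lay mostly in genes at or above the median gene level. This is a coarse split by array signal and does not rank the genes by amount of RNA. Of 19 collagen genes at or above the median gene level, 10 fell on the arrays labelled BJELM and 5 in BJEL, each against BJ, beside 7.37% and 3.11% of all genes at that level. Of the 24 below it, COL15A1 alone fell (4.17%), in both comparisons. Most falling genes of any kind also lay at or above that level, 679 of 866 on the arrays labelled BJELM and 286 of 421 in BJEL. All 19 brighter genes had lower means on the arrays labelled BJELM than in BJ, where 47.2% of all genes at or above the median level did. In BJEL 18 of 19 did, beside 42.9% of such genes, and COL8A1 was the exception. The 24 dim genes also shifted, by little: 22 had lower means in BJEL than in BJ, beside 64.1% of all dim genes, with a median of -0.22 beside -0.045. On the arrays labelled BJELM against BJEL, 21 of the 24 had higher means and 3 (12.5%) lower ones, beside 33.4% lower of all dim genes. Most dim genes of any kind thus had higher means there, and the median was 0.099 beside 0.051 over all dim genes. The BJ replicates also differed across the family. Replicate 2 was below replicate 1 in 40 of 43 collagen genes in BJ, beside 58.3% of all genes. It was lower in 24 of 43 on the arrays labelled BJELM, beside 57.9%, and in 20 of 43 in BJEL, beside 51.7%. In the 19 brighter collagen genes the arrays labelled BJELM differed too, with replicate 2 lower in 15, beside 63.9% of all genes at that level. There it was lower in 16 in BJ, beside 57.6%, and in 11 in BJEL, beside 57.6%. The medians were -0.29 on the arrays labelled BJELM, -0.25 in BJ and -0.094 in BJEL.

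Making a collagen takes hydroxylation of proline and lysine, folding and export from the endoplasmic reticulum, removal of the end propeptides and cross-linking. Over 4 lists of such genes, 39 were measured. Against BJ, 11 fell and 2 rose on the arrays labelled BJELM (28.2% and 5.13%), where 4.70% of all genes fell and 4.09% rose. In BJEL against BJ 3 fell and 1 rose (7.69% and 2.56%), where 2.29% of all genes fell and 2.89% rose, so that the rising shares lay near those of all genes. Against BJEL, 0 fell and 1 rose on the arrays labelled BJELM, where 1.76% of all genes fell and 0.923% rose, and 16 of the 39 (41.0%) had an unadjusted p under 0.05, beside 25.4% of all genes. The median difference of the 39 was -0.55 on the arrays labelled BJELM against BJ, beside 0.011 over all genes, and -0.30 in BJEL against BJ, beside -0.017.

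Among 14 modifying enzymes and their partners, P3H2, a prolyl 3-hydroxylase, changed in both lines. It had 7.83 and 7.81 on the arrays labelled BJELM, 8.18 and 8.31 in BJEL, and 9.34 and 9.40 in BJ. P3H2 changed by -1.55 ± 0.09 on the arrays labelled BJELM (limma adjusted p = 0.000231) and by -1.12 ± 0.09 in BJEL (adjusted p = 0.00118), each against BJ. P4HA2, a catalytic subunit of prolyl 4-hydroxylase, gave -1.12 ± 0.32 on the arrays labelled BJELM (adjusted p = 0.0464), a call lost when any array other than replicate 1 labelled BJELM was left out, the value without replicate 2 labelled BJELM being -0.69 (adjusted p = 0.145). In a fit of only those 2 lines the adjusted p of P4HA2 was 0.0528. P4HB, the shared beta subunit, differed from BJ by -0.29 ± 0.15 (adjusted p = 0.241) and PPIB, a prolyl isomerase of the endoplasmic reticulum, by -0.14 ± 0.08 (adjusted p = 0.272) on the arrays labelled BJELM. These 2 do not stand for all uncalled genes of the list. Below 2-fold, 5 of the 14 (35.7%) had lower values there than in BJ with an adjusted p under 0.05, beside 8.36% of all genes.

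Of 10 genes for folding and export, TMEM38B, which encodes an endoplasmic reticulum cation channel, rose. It had 8.94 and 9.36 on the arrays labelled BJELM, 8.60 and 8.91 in BJEL, and 7.39 and 7.83 in BJ. TMEM38B changed by 1.54 ± 0.21 on the arrays labelled BJELM (limma adjusted p = 0.00312) and by 1.15 ± 0.21 in BJEL (adjusted p = 0.015), where leaving out BJ replicate 1 gave 0.93 (adjusted p = 0.0811) and leaving out BJEL replicate 2 gave 0.99 (adjusted p = 0.077). FKBP7, a prolyl isomerase, fell by 1.48 ± 0.12 on the arrays labelled BJELM against BJ (adjusted p = 0.000579). SEC24D, of the vesicle coat that carries procollagen, fell there by 1.08 ± 0.10 (adjusted p = 0.000754). SERPINH1, the collagen chaperone HSP47, differed there by -0.55 ± 0.20 (adjusted p = 0.0895). Below 2-fold, 2 of the 10 (20.0%) had lower values there than in BJ with an adjusted p under 0.05, beside 8.36% of all genes.

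The largest change among the 39 was in a propeptidase. TLL1, a tolloid-like relative of BMP1, had 8.09 and 8.04 on the arrays labelled BJELM, 5.60 and 5.59 in BJEL, and 5.53 and 5.49 in BJ. The arrays labelled BJELM stood alone. TLL1 rose by 2.47 ± 0.08 against BJEL (limma adjusted p = 0.00024) and by 2.55 ± 0.08 against BJ (adjusted p = 5.74e-05) on the arrays labelled BJELM. ADAMTS2, which trims the amino-terminal propeptide, had 9.01 and 8.26 on the arrays labelled BJELM, 9.18 and 9.03 in BJEL, and 10.68 and 10.31 in BJ. ADAMTS2 changed by -1.86 ± 0.25 on the arrays labelled BJELM (adjusted p = 0.00312) and by -1.39 ± 0.25 in BJEL (adjusted p = 0.015). The adjusted p in BJEL was 0.0918 without BJ replicate 1, 0.0716 without BJEL replicate 1 and 0.075 without BJEL replicate 2. BMP1, the main carboxy-terminal propeptidase, fell by 1.10 ± 0.17 on the arrays labelled BJELM (adjusted p = 0.00531), and its value without BJ replicate 1 was -0.89, under 2-fold, as was the mean of all its probe sets at -0.55. PCOLCE, its enhancer, fell by 1.11 ± 0.25 on those arrays (adjusted p = 0.0199), and missed the threshold when either BJ array was left out (adjusted p = 0.103 without the first, 0.0628 without the second) or, with -0.72, when replicate 2 labelled BJELM was.

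Of the 5 lysyl oxidases, which cross-link the assembled fibrils, 4 fell on the arrays labelled BJELM, beside 4.70% of all genes, and 1 in BJEL, beside 2.29%, each against BJ. LOX had 11.10 and 9.94 on the arrays labelled BJELM, 11.68 and 11.37 in BJEL, and 12.49 and 12.46 in BJ. LOX fell by 1.95 ± 0.35 (limma adjusted p = 0.00878) on the arrays labelled BJELM, of which replicate 2 was far lower than replicate 1. LOXL4 had 6.77 and 6.64 on the arrays labelled BJELM, 7.06 and 6.87 in BJEL, and 8.85 and 8.39 in BJ. LOXL4 changed by -1.92 ± 0.17 on the arrays labelled BJELM (adjusted p = 0.000725) and by -1.66 ± 0.17 in BJEL (adjusted p = 0.00222). On the arrays labelled BJELM, LOXL2 fell by 1.20 ± 0.19 (adjusted p = 0.00591) and LOXL3 by 1.39 ± 0.35 (adjusted p = 0.0287). LOXL2 was under 2-fold without replicate 2 labelled BJELM (-0.93), and the LOXL3 call was lost without that array (adjusted p = 0.109) or BJ replicate 1 (adjusted p = 0.146).

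**Figure D4:**
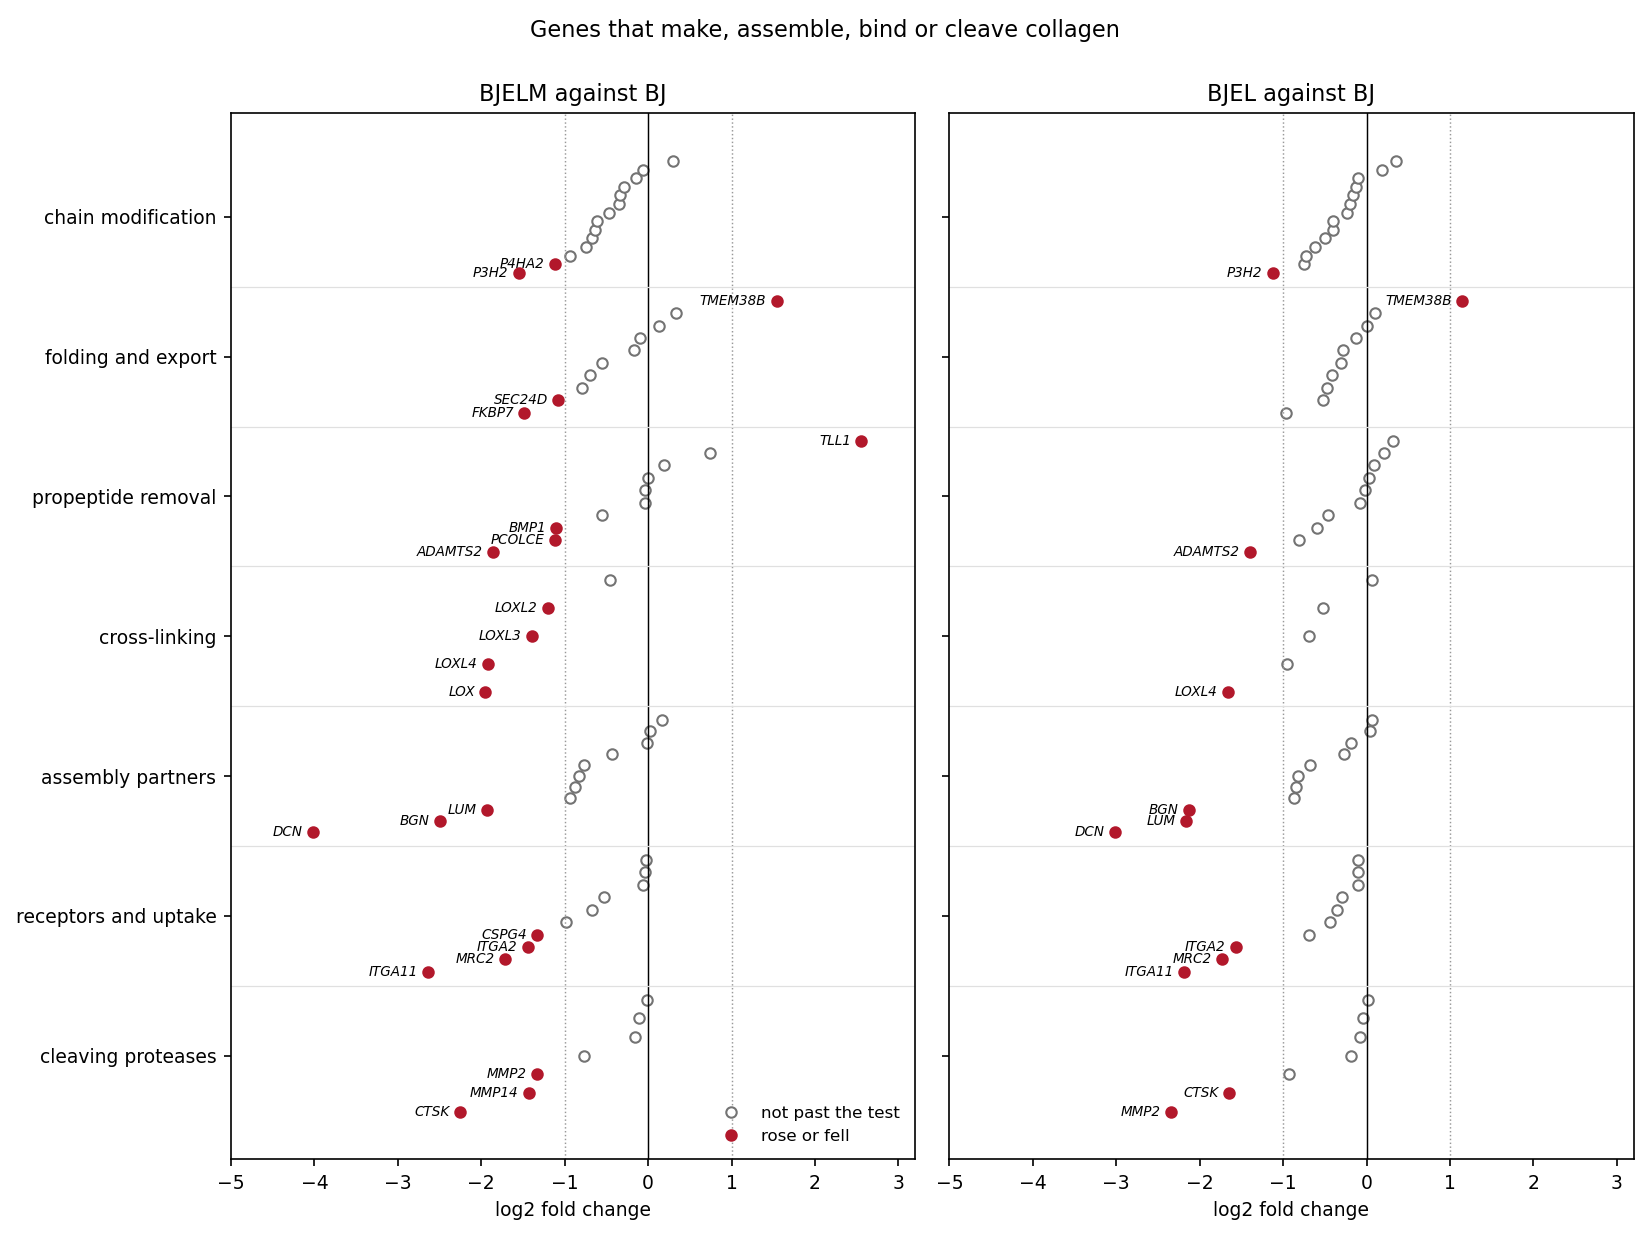
Log2 fold change (x axis) of each gene in 7 lists that make, assemble, bind or cleave collagen (rows), on the arrays labelled BJELM against BJ and in BJEL against BJ. Each point is a gene, filled red and named where it rose or fell by the test, and its height within a row only spreads the points; dotted lines mark 2-fold. DCN is the lowest point in both panels, at -4.02 and -3.01, and TLL1 the highest on the left, at 2.55.

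Of 11 proteins that assemble with collagen fibrils, the small proteoglycans DCN, LUM and BGN fell against BJ on the arrays labelled BJELM, beside 4.70% of all genes, and in BJEL, beside 2.29%. DCN, which binds type I fibrils, had 6.98 and 5.40 on the arrays labelled BJELM, 7.39 and 7.00 in BJEL, and 10.26 and 10.15 in BJ. DCN changed by -4.02 ± 0.47 on the arrays labelled BJELM (limma adjusted p = 0.00188) and by -3.01 ± 0.47 in BJEL (adjusted p = 0.00921), where the adjusted p was 0.0586 without BJ replicate 1 and 0.0531 without BJEL replicate 2. Without replicate 2 labelled BJELM, DCN differed from BJ by -3.23. BGN changed by -2.49 ± 0.25 (adjusted p = 0.0011) and LUM by -1.94 ± 0.24 (adjusted p = 0.00235) on the arrays labelled BJELM. In BJEL the values were -2.13 ± 0.25 (adjusted p = 0.00342) for BGN and -2.17 ± 0.24 (adjusted p = 0.00306) for LUM. SPARC, a collagen-binding glycoprotein, had 12.98 and 12.97 on the arrays labelled BJELM, 13.13 and 13.13 in BJEL, and 13.40 and 13.41 in BJ. Its difference from BJ was -0.43 ± 0.08 on the arrays labelled BJELM (limma adjusted p = 0.009) and -0.27 ± 0.08 in BJEL (adjusted p = 0.0619). Below 2-fold, 5 of the 11 (45.5%) had lower values on the arrays labelled BJELM than in BJ with an adjusted p under 0.05, beside 8.36% of all genes. In BJEL 3 (27.3%) did, beside 4.84%.

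Of 10 receptors and uptake proteins, 4 fell on the arrays labelled BJELM, beside 4.70% of all genes, and 3 in BJEL, beside 2.29%, each against BJ. ITGA11, the alpha chain of a fibroblast receptor for type I collagen, had 5.82 and 5.80 on the arrays labelled BJELM, 6.27 and 6.25 in BJEL, and 9.14 and 7.76 in BJ. ITGA11 changed by -2.64 ± 0.40 on the arrays labelled BJELM (limma adjusted p = 0.00469) and by -2.19 ± 0.40 in BJEL (adjusted p = 0.0154). The adjusted p in BJEL was 0.0835 without BJEL replicate 1 and 0.0706 without BJEL replicate 2. Without BJ replicate 1, the higher BJ array, ITGA11 differed by -1.95 on the arrays labelled BJELM and by -1.5 in BJEL. MRC2, which takes up collagen fragments, changed by -1.72 ± 0.15 (adjusted p = 0.000792) on the arrays labelled BJELM and by -1.73 ± 0.15 (adjusted p = 0.00161) in BJEL. ITGA2, also a collagen receptor chain, changed by -1.44 ± 0.22 (adjusted p = 0.00488) on the arrays labelled BJELM and by -1.56 ± 0.22 (adjusted p = 0.0064) in BJEL. CSPG4, a membrane proteoglycan that binds type VI collagen, fell by 1.22 ± 0.12 on the arrays labelled BJELM against BJEL (adjusted p = 0.00424). It had 8.28 and 7.99 on the arrays labelled BJELM, 9.38 and 9.33 in BJEL, and 9.40 and 9.53 in BJ.

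Of 7 collagen-cleaving proteases, CTSK, MMP14 and MMP2 fell on the arrays labelled BJELM against BJ, beside 4.70% of all genes, and CTSK and MMP2 in BJEL against BJ, beside 2.29%. MMP2, a gelatinase that also cleaves type IV collagen, had 11.01 and 10.56 on the arrays labelled BJELM, 9.94 and 9.62 in BJEL, and 12.20 and 12.03 in BJ. Its 3 lines did not overlap, and BJEL was lowest. MMP2 changed by -1.34 ± 0.18 on the arrays labelled BJELM (limma adjusted p = 0.00315) and by -2.34 ± 0.18 in BJEL (adjusted p = 0.00117), each against BJ. It rose by 1.00 ± 0.18 on the arrays labelled BJELM against BJEL (adjusted p = 0.0227), with an adjusted p of 0.0642 and 0.103 when the first or second BJEL array was left out and of 0.0526 without replicate 1 labelled BJELM. CTSK, the cathepsin that degrades type I collagen in bone, changed by -2.26 ± 0.20 (adjusted p = 0.000733) on the arrays labelled BJELM and by -1.65 ± 0.20 (adjusted p = 0.0036) in BJEL. MMP14, a membrane-bound collagenase, fell by 1.43 ± 0.18 on the arrays labelled BJELM (adjusted p = 0.00252). MMP1, the interstitial collagenase, had 10.98 and 11.90 on the arrays labelled BJELM, 11.86 and 12.40 in BJEL, and 12.20 and 12.22 in BJ, and was not called.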

How the data were processed

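Total RNA of 6 cultures, 2 per line, was hybridised to Affymetrix Gene 1.0 ST arrays. The authors deposited log2 signals made with Expression Console 1.3.1 and RMA at default settings, which equalises the distributions of the arrays, so a change of total RNA per cell is not seen. The array annotation's genome build is not given in the sources used here. Of 33297 probe sets, 19460 carry 1 gene symbol, giving 18417 genes, of which 18389 matched RefSeq GRCh38.p14 by Entrez ID. limma 3.58.1 in R 4.3.3 fitted a mean per line over all 6 arrays, with 3 residual and 3.13 prior degrees of freedom, a two-sided test and 95% intervals from the moderated statistic. The script was tested on simulated data. The number of arrays limits the precision. Same-numbered arrays deviated together, with r = 0.553 (BJELM and BJEL), 0.481 (BJELM and BJ) and 0.448 (BJEL and BJ) over 18417 genes, and were treated as paired in an alternative fit. No labelled batch was named. Alternatives covered normalization, filters on dim genes, probe sets, thresholds, the variance prior, single arrays and a Welch t-test. Members and lists were chosen with earlier results of these data known. All collagen genes are accounted for; from other lists the called genes with the largest changes are named. VIM, P4HB, PPIB, SERPINH1, SPARC and MMP1 were named after their values were seen.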

Additional observations from a re-analysis of the deposited data

How the results depend on the processing

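The number of collagen genes called was recomputed under every alternative, and no call changed sign. With any 1 array left out it was 8 to 12 on the arrays labelled BJELM against BJ, 4 to 8 in BJEL against BJ and 0 to 0 on the arrays labelled BJELM against BJEL. Of the original calls, 8 of 11 and 4 of 6 remained with any 1 array left out. With no fold minimum the count was 14 lower on the arrays labelled BJELM against BJ, where 13.1% of all genes were lower, and 15 lower in BJEL against BJ, where 7.13% were. It was 1 higher, COL16A1, on the arrays labelled BJELM against BJEL, where 4.53% of all genes were higher. The study's methods name a modified t-test for unequal variances. Its place was taken here by a Welch t-test, which estimates the spread of each gene from 2 arrays a line. By that test the count was 5 on the arrays labelled BJELM against BJ and 3 in BJEL against BJ. Lost on the arrays labelled BJELM were COL1A1, COL1A2, COL3A1, COL4A1, COL6A2 and COL15A1, and lost in BJEL were COL4A1, COL4A2 and COL15A1. Over all 18417 genes that test had 456 falling on the arrays labelled BJELM and 234 in BJEL. After Benjamini-Hochberg it called 0 of all 18417 genes in either comparison, so the 0 collagen genes there are not particular to the collagens. With the replicate block the counts were 11, 6 and 0, and no call of a collagen gene was lost or gained. Quantile normalization gave 9 in BJEL against BJ, adding COL3A1, COL5A1 and COL6A2. Of all 18417 genes, 458 fell there, beside 421 in the main fit. Signals near the lower end of the scale, as for COL6A5 and COL6A6, limit what a dim probe set can show of a fall.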
